A study of Anopheles gambiae with 60 samples.

Results

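The testis of adult male *Anopheles gambiae*, the malaria mosquito, was compared with the carcass of males on Affymetrix arrays, 4 testis arrays (Male_Testis_1 to Male_Testis_4) against 4 male carcass arrays (Male_Carcass_1 to Male_Carcass_4). These are 8 of the 60 arrays of a tissue atlas with 15 groups of 4, and they were chosen by their labels alone. All animals were adults of a single laboratory strain kept unmated by separating the sexes as pupae. The labels give an age of 5 days, whereas the study's methods place the females' blood meal at 3 days and take males of the same age in parallel, at 24, 48 and 72 h. The labels name a blood meal for both sexes. No other treatment or genotype separates the groups. Each array is a biological replicate made from tissue of at least 10 mosquitoes at each of the 3 times, pooled before 50 ng of total RNA was amplified in a two-cycle protocol, so no array shows a single animal or a single day. The carcass is what remained of thorax and abdomen after the tissues of the atlas were dissected out. It therefore holds muscle, fat body, oenocytes, cuticle and nerve cord together, and a lower level in it can mean either fewer cells with a transcript or less of it per cell.

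The mosquito testis is a tube in which germ cells divide, pass through meiosis and are remodelled into sperm with long flagella. Transcripts made in the spermatocytes are stored and used later, when the condensing nucleus is no longer transcribed. In flies and mammals testis transcripts are known to have shorter 3′ untranslated regions (UTRs) than those of other tissues, and the X chromosome is known to contribute few testis genes in several animals with XY males. *Anopheles* males have 1 X chromosome.

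A probe set is a group of short probes that read 1 transcript or part of it. The values are intensities, taken here as log2, of the 16884 probe sets with identifiers beginning Ag among the 22761 on the array. Detection in a group meant that 3 or more of its 4 arrays reached log2 5, an intensity of 32. The 6457 probe sets detected in testis or male carcass were tested with limma, a linear model that shares variance across probe sets, and called at a 2-fold difference and a Benjamini-Hochberg adjusted p under 0.05. The authors normalized each tissue on its own. The tissue and its normalization therefore cannot be told apart, and the balance of calls was computed under other scalings as well. Replicates correlated at 0.970 to 0.987 in testis and at 0.976 to 0.991 in carcass (Pearson's r over the tested probe sets, 6 pairs of arrays each, which share many features). With 4 arrays a group, precision is set by their number.

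More probe sets passed the limit on the testis arrays than on the carcass arrays, and the summed intensity was spread more evenly over probe sets. The testis arrays detected 5672, 5689, 5685 and 5779 probe sets and the carcass arrays 4241, 4024, 4342 and 4263. The groups did not overlap, and the means were 5706 ± 49.0 and 4218 ± 136 (SD, n = 4). The 100 brightest probe sets held 31.3 ± 0.83% of the summed intensity in testis and 38.1 ± 0.64% in carcass. For the 10 brightest the shares were 6.66 ± 0.24% and 7.84 ± 0.28%. For each of these measures an exact two-sided permutation test gave p = 0.0286, the smallest that 4 arrays against 4 allow (0.0286 after adjustment over the 7 such tests made). Medians over all Ag probe sets also lay higher on the testis arrays (log2 3.10 to 3.16) than on the carcass arrays (2.67 to 2.68). These measures were not computed under other scalings, so tissue and normalization cannot be told apart in them.

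Of the 6457 probe sets tested, 3193 (49.5%) were higher in testis and 1702 (26.4%) higher in male carcass. Together these made up 75.8% of those tested, and 1562 were not called. The 4 testis arrays all lay above the 4 carcass arrays for 54.0% of tested probe sets and all below for 29.7%, and did so for 3151 and 1663 of the calls in the same direction. The median difference was 2.92 on the log2 scale over those higher in testis and -2.31 over those higher in carcass. Where all 4 arrays of the lower group were under log2 5, its mean was set to log2 5, and other calls kept their fitted difference. These medians then became 1.77 and -1.76. Among the calls, 65.2% were higher in testis as deposited, but 46.7% after quantile normalization of the 8 arrays (2163 higher, 2471 lower) and 46.9% after quantile normalization of all 60 arrays (1978 and 2243). That step moved the median difference of all tested probe sets from 0.96 to -0.20. In no setting did a called probe set turn to the opposite call. Under all 4 scalings tried, 1897 of the testis calls (59.4%) and 1678 of the carcass calls (98.6%) were kept.

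**Figure D1:**
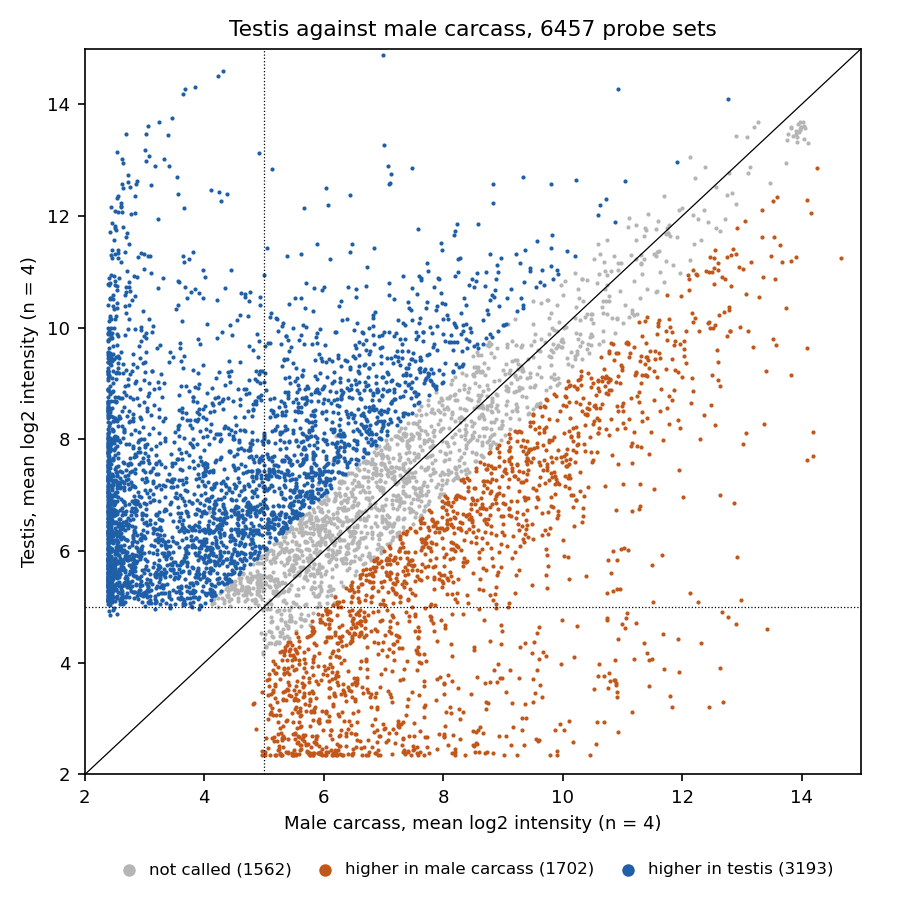
Mean log2 intensity of 6457 probe sets in testis (vertical axis) against male carcass (horizontal axis), 4 arrays each. Points are coloured by call, dotted lines mark the detection limit of log2 5 and the diagonal marks equal levels. The 3193 probe sets higher in testis include a dense column at the left edge, where the carcass arrays lay at their floor.

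Many of the called probe sets were detected in only 1 of the groups. Testis detected 5583 probe sets and male carcass 4084, with 3210 in common. A further 2373 passed the limit in testis alone and 874 in carcass alone. Of the 3210 detected in both groups 959 were higher and 910 lower. A probe set detected in 1 group alone could hardly be called in the other direction, so these counts follow in part from the detection rule. In 1997 of the testis calls all 4 carcass arrays were under the limit, and in 683 of the carcass calls all 4 testis arrays were. For such probe sets only a bound is given, the mean of the brighter group over the limit. With this bound for such probe sets and the fitted size for all other calls, 358 probe sets reached 16-fold in testis and 18 reached 256-fold. In carcass 143 and 4 reached the same sizes. Fitted sizes of calls with only some arrays under the limit still rest in part on values near the floor, so these counts are not all of minimum sizes.

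The value table holds probe set identifiers without gene names. Genes were paired with probe sets through relative abundance values of orthologue tables of the study, which match 1173 genes to a single probe set each. Those tables hold genes with a 1:1 orthologue in *Drosophila* and are used here only in part, so most probe sets stay unnamed and no product name is given to them. Among the 984 paired genes tested, 501 were higher in testis and 296 in carcass (50.9% and 30.1%, against 49.5% and 26.4% of all tested). Named below are the 15 paired genes with the largest fitted differences each way, among calls whose groups did not overlap. Where a group lay under the limit the fitted size, and with it the order of the genes, depends on values near the array floor, and the bound is the supported size.

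The gene AGAP009940 lies on arm 3R. Its probe set lay at 13.21, 13.20, 13.20 and 12.95 in the testis arrays and at 2.78, 2.55, 2.41 and 2.41 in the carcass arrays. The carcass values were all under the limit, which puts the gene at least 282-fold higher in testis (log2 difference 10.60 ± 0.13 SE, limma adjusted p = 1.93e-11). It was bright in ovary too, at 11.11.

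AGAP001620 (arm 2R, orthologue FBgn0039104) reached 13.79, 13.61, 13.64 and 13.42 in testis and 4.90, 2.50, 2.41 and 2.39 in carcass. Carcass replicate 1 stood more than 2 log2 units above the other carcass arrays. The gene was at least 392-fold higher in testis (10.56 ± 0.51, adjusted p = 1.6e-08) and lay at 2.41 in ovary. AGAP002365 (2R) was at 12.57, 12.58, 12.67 and 12.48 in testis and at 3.22, 2.50, 2.39 and 2.39 in carcass, at least 191-fold higher. It lay at 2.37 in ovary, and in carcass replicate 1 was again the highest.

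AGAP001735 (2R, orthologue FBgn0036214) lay between 11.95 and 12.19 in testis and between 2.39 and 2.67 in carcass, at least 136-fold higher. AGAP009741 (3R) lay between 11.61 and 11.95 in testis and at 2.52 in all 4 carcass arrays, at least 108-fold higher. Both were detected in 2 of the 15 groups, testis and male whole body. In male salivary gland their means were 5.25 and 5.14, although fewer than 3 arrays reached the limit. AGAP008689 (3R) had 11.13 to 11.51 in testis against 2.83 to 2.92 in carcass, and passed the limit in 3 groups. AGAP001639 (2R, orthologue FBgn0038100) had 12.45 to 12.79 in testis, 2.51 to 3.58 in carcass and a mean of 7.07 in ovary.

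Some of the genes far above carcass were shared with the ovary. AGAP009459 (3R) was at 11.47, 11.44, 11.57 and 11.53 in testis against 2.74, 2.73, 2.74 and 2.74 in carcass, and at 9.14 in ovary. AGAP001229 (2R, orthologue FBgn0024432) was at 12.21, 12.37, 12.07 and 11.90 against 3.63, 3.63, 3.63 and 3.74, and at 8.50 in ovary. Their lower bounds were 90.5-fold and 141-fold. AGAP009459 was detected in 4 of the 15 groups and AGAP001229 in 7.

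AGAP001419 (2R, orthologue FBgn0038826) and AGAP003847 (2R) were among the brightest, and each had at least 1 carcass array above the limit. AGAP001419 had 13.60, 13.04, 13.02 and 12.84 in testis and 4.91, 4.51, 5.32 and 4.91 in carcass, where it did not count as detected, and the fitted difference of 8.21 ± 0.21 (adjusted p = 2.19e-10) rests in part on values under the limit. AGAP003847 had 12.97, 13.10, 12.66 and 12.67 in testis and 5.53, 4.32, 5.07 and 5.59 in carcass, a 212-fold difference. The other genes of the set, AGAP008896, AGAP005374, AGAP004774 and AGAP005263, lay between 9.95 and 11.39 in testis, under the limit on every carcass array, and at least 40.2-fold to 78.4-fold higher. All 15 kept their call under all 4 scalings and none lay on the X chromosome.

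Among probe sets without a paired gene, Ag.3R.722.0_CDS_at lay at 13.81, 13.61, 13.19 and 13.25 in testis and at 3.61, 2.39, 2.39 and 2.39 in carcass, at least 353-fold higher. Ag.2R.2137.0_CDS_at lay at 14.32, 14.33, 14.36 and 14.11 in testis and at 6.69, 2.97, 2.54 and 2.54 in carcass. Ag.2R.1859.0_CDS_at lay at 14.16, 14.09, 14.34 and 14.13 in testis and at 6.23, 3.57, 2.39 and 2.39 in carcass. The fitted differences of 10.59 ± 0.81 and 10.53 ± 0.73 had wide errors and rest on 3 carcass arrays under the limit, and in both probe sets carcass replicate 1 was far above the other carcass arrays.

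Carcass replicate 1 stood apart in this way across the brightest testis probe sets. There were 72 called higher in testis with a mean of log2 12 or more, and 54 of them lay under log2 7 in carcass. Over these 54 the median level was 3.99 in carcass replicate 1, against 2.68, 2.53 and 2.55 in replicates 2, 3 and 4. Replicate 1 was the highest carcass array for 44 of the 54. In the opposite direction, 14 carcass probe sets of log2 12 or more lay under log2 7 in testis, with medians of 5.61, 4.83, 4.79 and 4.02 in testis replicates 1 to 4, and testis replicate 1 was the highest for 7. Without carcass replicate 1 the calls were 3177 higher in testis and 1755 higher in carcass. Without testis replicate 1 they were 3263 and 1688. Whether tissue was carried over in dissection was not tested.

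**Figure D2:**
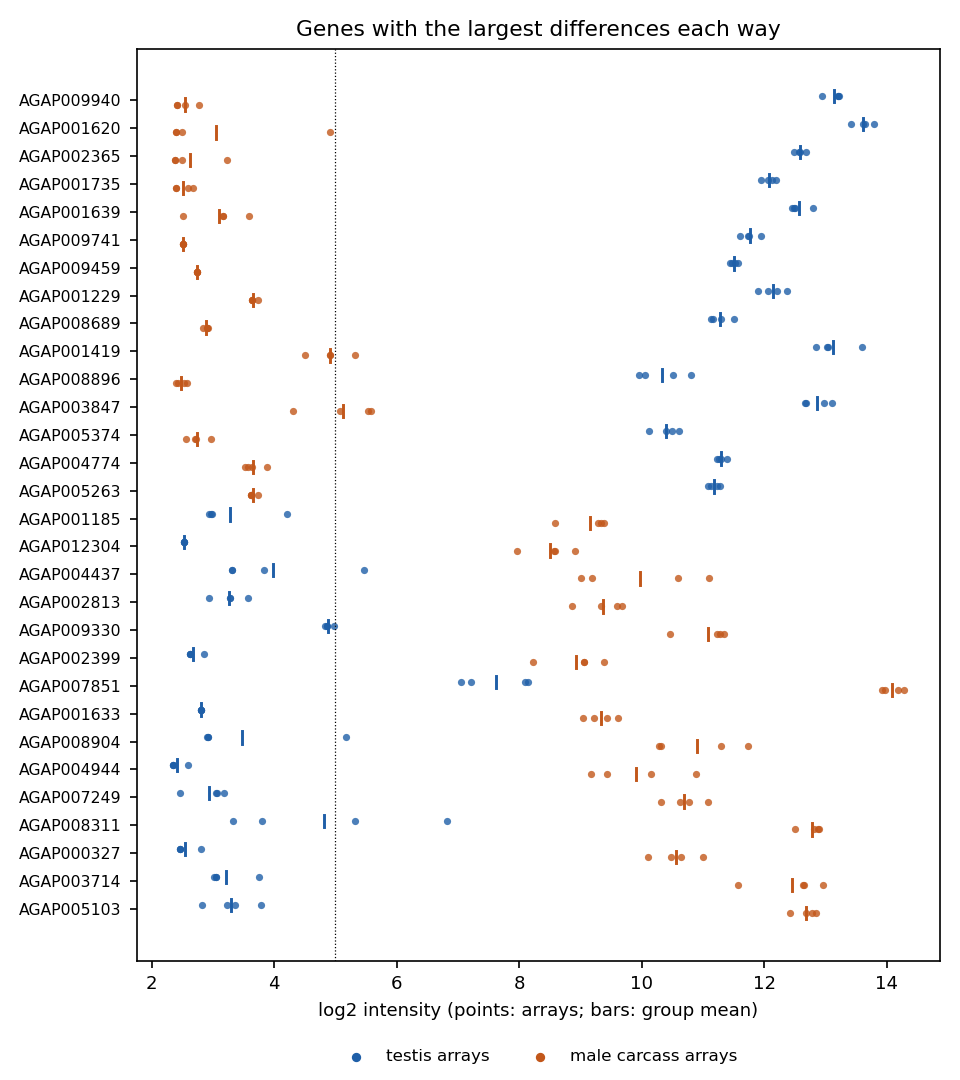
Log2 intensity of the 15 paired genes with the largest difference in each direction, in the 4 testis arrays (blue points) and the 4 male carcass arrays (orange points). Bars mark group means and the dotted line the detection limit of log2 5. Genes were taken only among calls whose groups did not overlap, so their separation follows from that choice. AGAP001620 shows 1 carcass array, replicate 1, at 4.90.

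In the other direction the paired genes with the largest differences were bright in carcass, and most were under the limit in testis. AGAP005103 (2L) was at 12.77, 12.84, 12.68 and 12.42 in carcass and at 3.36, 3.79, 3.23 and 2.82 in testis. It was at least 205-fold higher in carcass (log2 difference -9.38 ± 0.20, limma adjusted p = 7.74e-11). AGAP003714 (2R) was at 12.65, 11.58, 12.64 and 12.95 in carcass and at 3.74, 3.05, 3.05 and 3.02 in testis, at least 175-fold higher in carcass. In neither gene did any testis array reach the limit.

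AGAP000327 (X, orthologue FBgn0030558) had 10.64, 10.48, 10.11 and 11.00 in carcass against 2.80, 2.46, 2.46 and 2.46 in testis, at least 47.1-fold. AGAP008311 (3R) varied among the testis arrays. It had 6.83, 3.79, 5.32 and 3.34 in testis against 12.81, 12.87, 12.50 and 12.90 in carcass, a difference of -7.95 ± 0.65. AGAP008904 (3R) was at 5.18, 2.92, 2.92 and 2.90 in testis and at 10.31, 10.28, 11.29 and 11.74 in carcass. For both of these genes testis replicate 1 was the highest testis array.

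AGAP007851 (3R) was the brightest of the set, at 13.97, 14.28, 14.18 and 13.92 in carcass, and it remained detected in testis at 8.09, 7.05, 8.15 and 7.22 (difference -6.46 ± 0.26). AGAP009330 (3R) had 11.34, 10.46, 11.27 and 11.22 in carcass and 4.86, 4.83, 4.86 and 4.98 in testis, just under the limit. The other 8 paired genes with large differences, AGAP007249, AGAP004944, AGAP001633, AGAP002399, AGAP002813, AGAP004437, AGAP012304 and AGAP001185, lay between 7.96 and 11.10 in carcass and between 2.35 and 5.46 in testis. All but AGAP004437 were under the limit in every testis array, and these were at least 11.3-fold to 51.8-fold higher in carcass. AGAP004437 passed the limit in testis replicate 1 alone. By identifier alone, Ag.2R.369.0_CDS_s_at, Ag.2R.402.0_CDS_a_at and Ag.2L.357.0_UTR_s_at lay at means of 13.42, 12.63 and 11.83 in carcass and 4.60, 3.90 and 3.20 in testis.

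Of the marker genes on a list of 10 identifiers for the cell types that a testis or carcass sample could hold, 3 could be paired, and all are markers of carcass cells. The myosin heavy chain of muscle, AGAP010147, had 8.28, 6.78, 9.00 and 8.94 in carcass and 3.56, 3.55, 3.55 and 3.55 in testis. It was at least 9.50-fold higher in carcass (-4.69 ± 0.43, adjusted p = 2.29e-06) and under the limit in every testis array.

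The fat body and oenocyte markers were lower in testis than in carcass but remained bright there. AGAP001826 (orthologue FBgn0016724), the lipophorin that fat body secretes to carry lipid, was at 9.61, 9.15, 10.49 and 10.14 in testis against 12.81, 12.10, 12.93 and 13.20 in carcass, a 7.52-fold difference (-2.91 ± 0.32, adjusted p = 9.78e-06). AGAP001076 (X, orthologue FBgn0030304), the cytochrome P450 CYP4G16 of oenocytes, cells that make cuticular hydrocarbons, was at 11.18, 11.36, 10.81 and 11.27 in testis against 12.68, 12.52, 12.67 and 12.54 in carcass, a 2.73-fold difference (-1.45 ± 0.15, adjusted p = 5.06e-06). In ovary the same genes had means of 5.23 and 4.94. The groups did not overlap for any of the 3 markers, and the testis arrays all lay below the carcass arrays for 29.7% of all tested probe sets. The part of fat body or oenocyte tissue in the testis samples was not tested. The testis markers on the list, AGAP008622 and AGAP008578, were not paired, so the testis label was checked against no defining marker of its own.

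The study had sorted orthologous genes into clusters by their tissue profile. That sorting used these same arrays, so the counts describe the clusters and are no independent evidence of their direction. The part of the table used here gave 372 tested paired genes of cluster A9, which the study linked with the testis and with microtubule-based process and spermatogenesis. Of these, 368 (98.9%) were higher in testis and none was lower, with a median difference of 3.28 and none on the X. Clusters A2 and A3, linked with carcass and with metabolism and cellular respiration, had 52 of 65 and 116 of 119 genes higher in carcass and none higher in testis. Cluster A6 was mixed, with 18 higher in testis and 13 higher in carcass among 34. Among all tested probe sets 49.5% were higher in testis and 26.4% in carcass.

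The X chromosome departed from the autosomes. The identifier of a probe set gives its chromosome arm, and among paired genes next to each other by number, 99.6% shared an arm. Of 303 X-linked probe sets tested, 29 (9.57%) were higher in testis and 170 (56.1%) higher in carcass, against 49.5% and 26.4% of all tested. The 4 autosomal arms were alike, with 51.7% to 52.4% of probe sets higher in testis and 24.0% to 25.1% higher in carcass. Their median differences lay between 1.10 and 1.16, and that of the X was -1.23. Under quantile normalization of the 8 arrays 3.57% of X-linked and 36.7% of autosomal probe sets were higher in testis, and 80.1% and 36.3% were higher in carcass.

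Fewer X-linked probe sets were tested at all, 303 of 1403 (21.6%) against 43.4% of the autosomal ones. Among probe sets of log2 5 to 7 in carcass, 53.1% on the X and 25.9% on the autosomes were higher in carcass, and 6.25% and 40.0% were higher in testis. Among probe sets of log2 7 to 9 in carcass, 60 of 94 on the X (63.8%) and 41.0% on the autosomes were higher in carcass, and 2 on the X and 20.5% on the autosomes were higher in testis. Among those of log2 9 or more, 80.4% on the X and 65.3% on the autosomes were higher in carcass. Probe sets under log2 5 in carcass were left out here, since detection in testis could bring them into the test. Over probe sets detected in each of 8 somatic groups outside this comparison, 1.95% of 154 on the X were higher in testis, against 29.2% of 1901 on the autosomes.

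The same contrast can be read within single arrays, where a common scale factor drops out. Over 156 X-linked and 1906 autosomal probe sets detected in all 8 of those somatic groups, the X median minus the autosomal median was -1.69, -1.73, -1.50 and -1.42 on the log2 scale in testis replicates 1 to 4. In the carcass arrays it was -0.09, -0.46, -0.12 and -0.22. The groups did not overlap, and their means were -1.58 ± 0.15 in testis and -0.22 ± 0.17 in carcass (SD, n = 4, exact permutation p = 0.0286). The ovary was lowest after the testis, at -0.91 ± 0.18, and its arrays did not overlap the testis arrays (exact permutation p = 0.0286). The other 12 groups had means between -0.45 and 0.08.

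**Figure D3:**
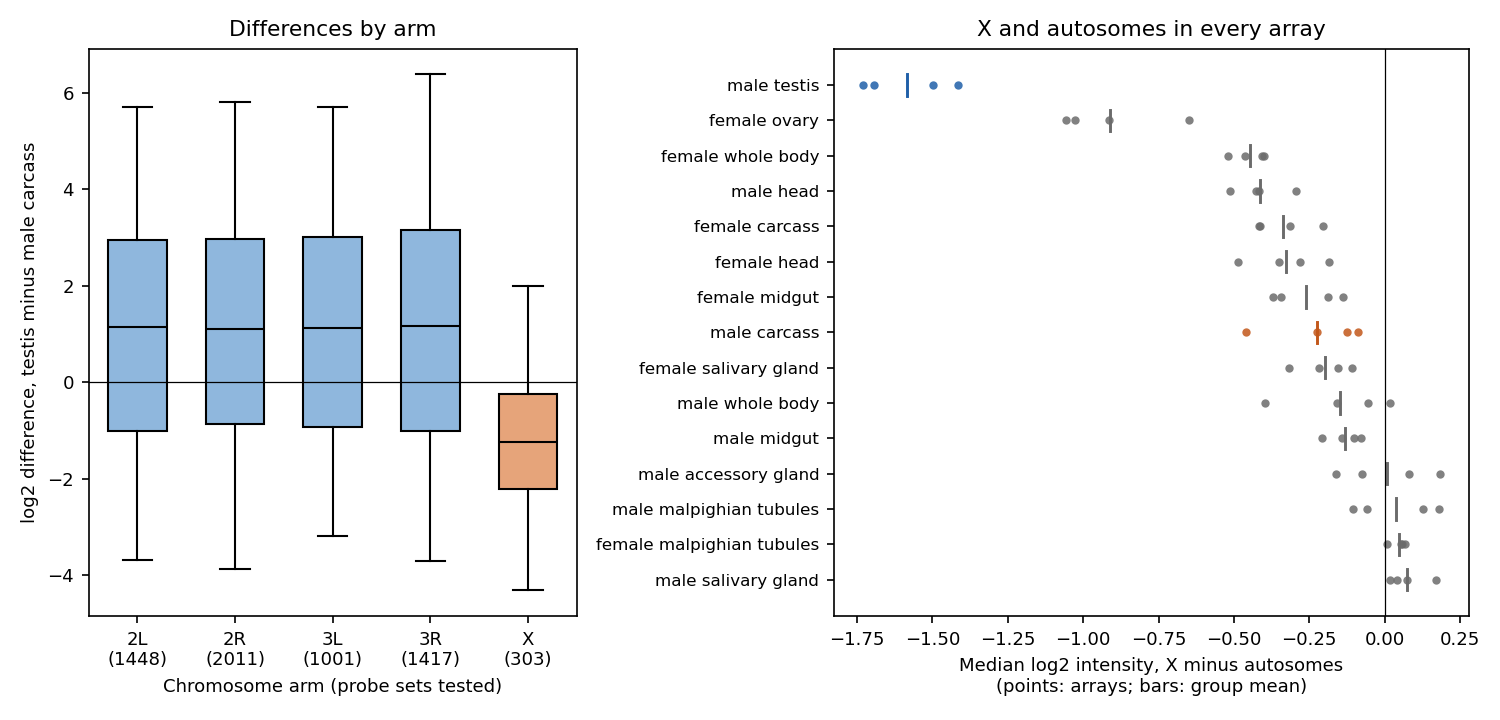
Left, log2 difference between testis and male carcass by chromosome arm, with boxes for the quartiles, lines for the median and whiskers for the 5th and 95th percentiles. The 4 autosomal arms have medians of 1.10 to 1.16 and the X of -1.23. Right, the median log2 intensity of 156 X-linked minus 1906 autosomal probe sets in each of the 60 arrays (points) with group means (bars), lowest in the testis arrays at -1.73 to -1.42.

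Among the most reduced X-linked genes besides AGAP000327, AGAP000749 (orthologue FBgn0038774) was at 11.50, 11.37, 11.60 and 11.50 in carcass and at 5.31, 5.92, 5.44 and 6.32 in testis. It was detected in all 15 groups, with 10.36 in ovary. AGAP000129 (orthologue FBgn0058470) was at 9.03, 8.83, 8.51 and 8.61 in carcass and at 3.71, 3.09, 3.66 and 2.65 in testis. AGAP001023 (FBgn0038294), AGAP000211 (FBgn0029831) and AGAP001030 (FBgn0024980) were under the limit in every testis array, and were at least 5.72-fold, 6.06-fold and 1.38-fold higher in carcass.

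The 29 X-linked probe sets higher in testis had smaller differences, with a median of 2.31 against 2.93 for the autosomal ones and a highest of 7.42. Of the 29, 19 were detected in ovary, as were 1702 of the 3061 autosomal ones. Also higher in ovary than in female carcass were 16 of the 29 (55.2%), against 46.6% of the autosomal ones. Under all 4 scalings 9 of the 29 kept their call, as did 1828 of the 3061 autosomal ones. The 4 of the 29 paired with genes had small differences, and none of these 4 was among the 9. AGAP001058 (FBgn0030057) was at 8.34, 8.67, 8.23 and 7.97 in testis against 6.28, 7.49, 6.74 and 6.99 in carcass. AGAP000201 (FBgn0038166), AGAP000531 (FBgn0037251) and AGAP000954 (FBgn0039790) lay between 5.47 and 6.14 in testis and between 3.81 and 5.16 in carcass.

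The ovary, the other gonad, offered a comparison with its own carcass. Of 330 X-linked probe sets tested there, 33.0% were higher in ovary and 30.9% higher in female carcass, against 48.6% and 25.1% of all 5432 tested. Of the 3193 probe sets higher in testis, 1508 (47.2%) were also higher in ovary than in female carcass, 71 were lower, 279 were not called and 1335 were detected in neither of those tissues. The difference between the gonad effects was tested as an interaction over the 16 arrays. Each gonad was set against the carcass of its own sex, so a difference between the carcasses enters the interaction. The effect was larger in testis for 1784 of the 3193 (55.9%, against 33.9% of all 7093 tested) and larger in ovary for 303 (9.49%, against 27.7%). The testis contrast that chose the 3193 is part of that interaction, so these shares describe them only.

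The 5 paired genes with the largest fitted interaction were AGAP001620, AGAP002365, AGAP001735, AGAP009741 and AGAP001419. Their mean levels in ovary, female carcass and male carcass were all under the limit, so neither the size nor the order of their interactions is given. The most negative fitted values were those of AGAP008904, AGAP009330, AGAP000749, AGAP012304 and AGAP006063. AGAP009330 had means of 4.88 in testis and 8.41 in ovary. Its means were 11.07 in male carcass and 7.97 in female carcass, and this difference enters its interaction too. AGAP006063 was at 4.79, 4.84, 4.69 and 4.73 in testis against 10.18, 9.68, 10.07 and 9.99 in carcass, and its mean in ovary was 9.13. AGAP008904 was low in ovary as well, at 2.40, but it was low in female carcass too (3.09).

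Detection elsewhere differed between the sets. Of the probe sets higher in testis, 56.1% were detected in ovary, 57.6% in female whole body and 43.4% in male whole body. Each remaining group outside the comparison detected 30.6% to 41.3%. Male carcass detected 30.0%, a share kept low in part by the call itself. Over all tested probe sets the shares were higher, at 60.6% in ovary, 69.6% in female whole body and 68.4% in male whole body. In the remaining groups outside the comparison they were 47.05% to 58.56%. Those higher in carcass were detected in 93.7% of cases in male whole body, 87.5% in female carcass and 80.6% and 78.0% in female and male head. Over all tested probe sets female carcass detected 58.56%, female head 56.84% and male head 55.97%. Of the testis set, 1009 (31.6%) passed the limit in none of the 11 other dissected groups and 540 (16.9%) in all of them. For the carcass set these counts were 65 (3.82%) and 542 (31.8%). A total of 901 (28.2%) of the testis set were detected in testis alone among the 15 groups. A probe set detected in testis alone could enter the test only through testis, so this count follows in part from the detection rule. Shares detected in testis alone, or in none or all of the other dissected groups, were not computed over all tested probe sets. Groups of different tissues were normalized separately, so a limit of log2 5 is not equally strict in each.

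**Figure D4:**
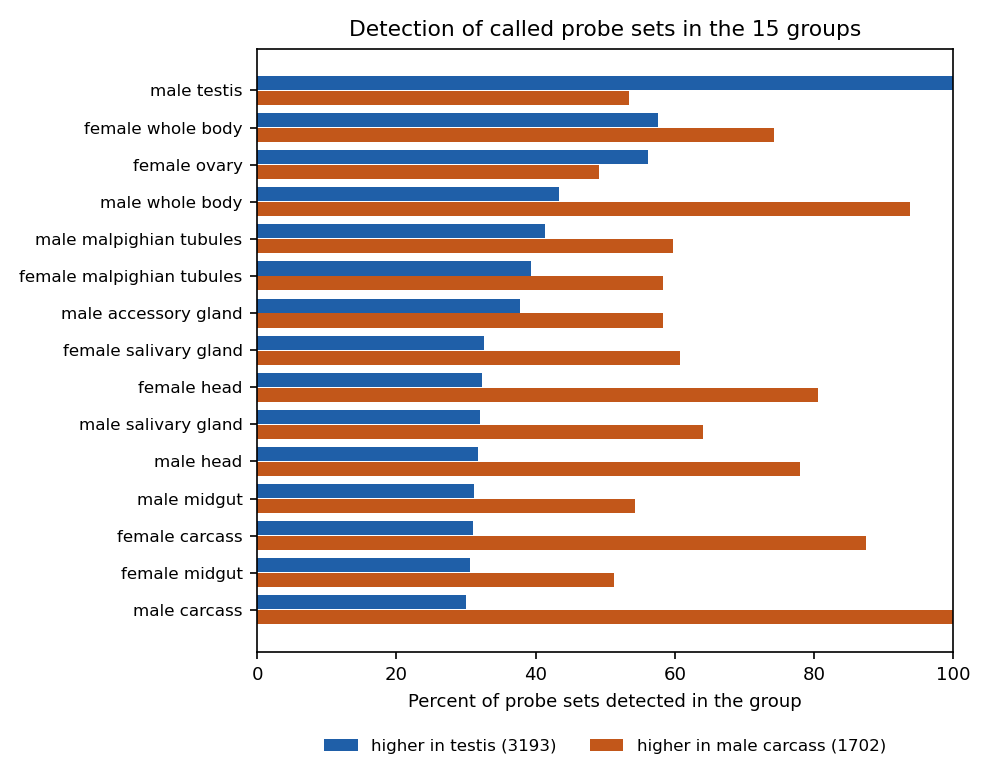
Percent of the 3193 probe sets higher in testis (blue) and of the 1702 higher in male carcass (orange) that were detected in each of the 15 groups. The testis set was detected most in ovary and female whole body (56.1% and 57.6%, against 60.6% and 69.6% of all tested probe sets) outside the testis. The carcass set was detected most, outside male carcass, in male whole body (93.7%, against 68.4%).

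The whole bodies were arrays that the testis comparison did not use. Male and female whole body differed at 28.5% of 5821 probe sets in favour of males and at 30.6% in favour of females. Of the 3193 probe sets higher in testis, 1995 could be tested there. Among these, 189 (9.47%) were higher in male whole body and 1078 (54.0%) were higher in female whole body. The 1078 lay largely among those also higher in ovary: of 1370 such probe sets tested, 931 (68.0%) were higher in the female body and 13 in the male body. Of the 625 tested that were not called higher in ovary, 176 were higher in the male body and 147 in the female body (28.2% and 23.5%). Of the 1402 with ovary under the limit only 347 could be tested, and 151 of these (43.5%) were higher in the male body and 76 (21.9%) in the female body. The probe sets higher in carcass ran the other way, with 1027 of 1604 (64.0%) higher in male and 70 higher in female whole body.

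Of the 15 paired genes with the largest testis differences, 6 were higher in male whole body, among them AGAP001620 (difference 5.46, limma) and AGAP002365 (4.78). AGAP009940, AGAP009459, AGAP005374, AGAP004774 and AGAP005263 were higher in the female body, with male minus female differences of -3.44 to -1.27 on the log2 scale. AGAP008896 was detected in testis alone and was not tested in whole body.

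Some probe sets come in pairs whose identifiers share a stem, 1 marked CDS (coding sequence) and 1 marked UTR. The files do not say that both lie in a single transcript. In 332 pairs both probe sets were tested, and they often disagreed. The call was the same in 196 pairs (59.0%), with 98 higher in testis and 67 higher in carcass by both. It was opposite in 37 pairs, and in all 37 the CDS probe set was higher in testis and the UTR probe set higher in carcass. The median difference between testis and carcass was 1.83 for the CDS members and -0.22 for the UTR members. A member under the limit in carcass could enter only through testis, as in many of the CDS members of opposite pairs. These counts and medians therefore follow in part from the detection rule.

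The UTR minus CDS value of each pair was then compared between testis and carcass in limma, a comparison chosen after these values were seen. It was lower in testis in 187 pairs (56.3%) and higher in 25 (7.53%), and its median shift was -1.26. Over the 115 pairs with both probe sets detected in both groups it was lower in 65 and higher in 2. After quantile normalization 147 pairs were lower and 43 higher. The shift was smaller in the other gonad: in ovary against female carcass 64 of 236 pairs (27.1%) were lower and 23 (9.75%) higher. Tested as an interaction over the 332 pairs, the shift was lower in testis than in ovary in 184 pairs and higher in 26. Over the 66 pairs detected in all 4 groups it was lower in 30 and higher in 0, with 2 higher and 39 lower for testis against carcass alone.

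Over the 115 pairs, the median UTR minus CDS value was 1.50, 1.73, 1.81 and 1.89 in the testis arrays and 2.98, 3.44, 2.87 and 2.80 in the carcass arrays. The means were 1.73 ± 0.17 and 3.02 ± 0.29 (SD, n = 4, exact permutation p = 0.0286). The ovary had 2.91 ± 0.37 and did not overlap the testis (exact permutation p = 0.0286). The means of the 14 groups other than testis lay between 2.59 and 3.56. The testis arrays were the lowest 4 of the 60.

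**Figure D5:**
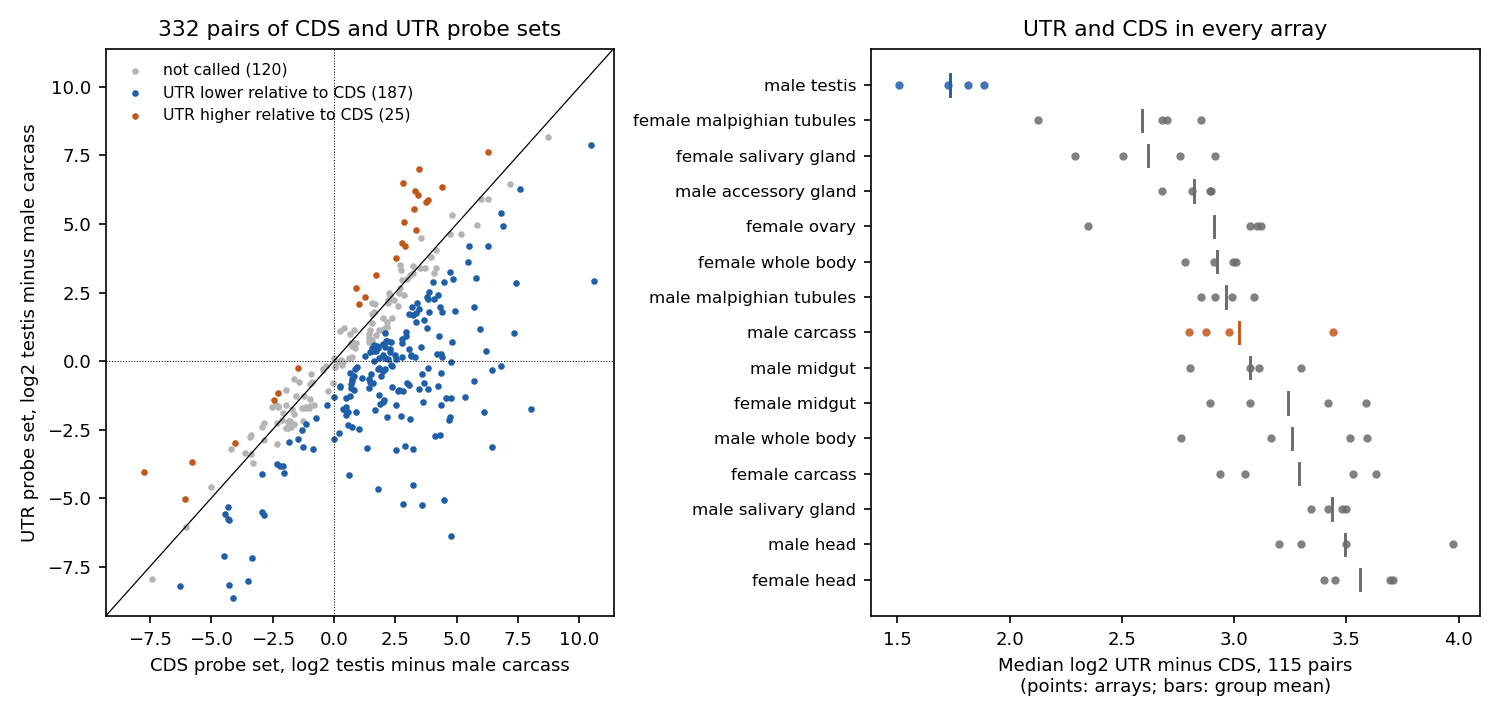
Left, log2 difference between testis and male carcass of the UTR probe set against that of the CDS probe set in 332 pairs, coloured by the limma test of their difference, with the diagonal marking equality. Of the pairs, 187 lie significantly below the diagonal and 25 above. Right, the median UTR minus CDS value over 115 pairs in each array (points) with group means (bars), where the 4 testis arrays, at 1.50 to 1.89, lie below all others.

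The pair Ag.2R.308.0 was opposite by a wide margin. Its CDS probe set lay at 9.79, 9.21, 9.40 and 9.15 in testis and at 4.05, 3.87, 4.54 and 5.94 in carcass. Its UTR probe set lay at 3.21, 2.72, 3.51 and 2.64 in testis and at 9.79, 8.41, 9.49 and 9.86 in carcass. The groups did not overlap in either probe set. The UTR values in testis and all but 1 of the CDS values in carcass were under the limit, so the size of the shift is not given. In the pair Ag.3L.130.0 the CDS probe set lay at 12.90, 12.44, 12.30 and 11.95 in testis and at 4.81, 2.59, 4.85 and 5.28 in carcass. Its UTR probe set was above the limit throughout, at 8.50, 8.90, 8.82 and 9.27 in testis and 10.57, 10.87, 10.41 and 10.62 in carcass.

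A gene could be paired with the CDS probe set in 8 of the 37 opposite pairs. AGAP002401 had CDS levels of 8.75, 8.61, 9.02 and 8.80 in testis and 2.55, 2.73, 2.73 and 2.76 in carcass. The UTR probe set of the same stem had 6.53, 6.14, 6.10 and 6.50 in testis and 7.96, 8.47, 8.31 and 7.97 in carcass. The groups did not overlap in either probe set, and the order was reversed between them. AGAP002884, AGAP010189, AGAP003857, AGAP001548, AGAP008007, AGAP001730 and AGAP001802 showed the same pattern with fitted UTR minus CDS shifts of -6.85 to -3.46, and in all of them but AGAP001802 some CDS values in carcass were under the limit. For such stems the direction of the testis difference depends on which probe set is read. The genes were paired through the CDS probe set alone, although the study took a gene's highest probe value in each tissue. For AGAP002884 the carcass means were 4.60 (CDS) and 11.93 (UTR). Whether the UTR probe sets read the same genes was not tested.

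At the 2-fold threshold, Ag.2R.716.0_CDS_s_at and Ag.2L.194.0_CDS_a_at lay just inside in testis (5.88 against 4.88, and 6.04 against 5.04). Ag.2R.983.0_UTR_at and Ag.2L.1089.0_UTR_at lay just outside (7.39 against 6.39, and 9.57 against 8.57). On the carcass side Ag.3L.1043.0_CDS_at (5.66 in testis, 6.66 in carcass) and Ag.3L.269.0_CDS_at (5.84 and 6.84) lay just inside. Ag.2L.712.0_CDS_at (6.27 and 7.27) and Ag.3R.308.0_CDS_a_at (6.49 and 7.49) lay just outside.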

How the data were processed

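Testis and male carcass arrays, and the other groups beside them, were taken by their labels from the series' value table. The authors deposited linear intensity values, made with GCRMA per the labels (the study's methods name a robust multi-array package, and no version is given in the sources used here), normalized within each tissue, with probes mapped to AgamP3. All columns belonged to the 60 samples (0 others). Values were taken as log2 without further scaling. Of the 22761 probe sets, 5877 without Ag identifiers were left out. R 4.3.3 with limma 3.58.1 (lmFit, eBayes) was used, and Python 3.11.15 for counts and exact permutation tests. The array number, 4 per group, limits the precision.

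Genes were paired where relative abundance over at least 3 tissues fitted 1 probe set alone within 0.0006: 1173 of 1352. Named were the 15 paired genes and 5 probe sets with the largest differences each way among calls whose groups did not overlap, the pairable markers, the values nearest the threshold, and the 5 largest interactions each way. X-linked genes outside this and the CDS and UTR pairs were chosen after their values were seen. Members and lists were chosen with earlier results of these data known. Gene lists by product name and promoter motifs, which need an annotation or sequences, were not analysed here.

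On simulated data for testis against carcass (6457 probe sets, 200 changed), a log2 change of 1.5 was recovered in 93% and of 3 in 99%, with 1 of 193 calls false. For the CDS and UTR pairs (332 pairs, 60 changed) these were 96.7% and 100%, with 1 of 60 calls false. Neither simulation held a scale difference between the tissues, and both changed fewer members than were called in the data. The false-call figures therefore do not cover errors from normalization. Alternatives changed the scaling, detection limit, fold threshold, variance model, control and probe sets used, added the replicate block, or left out each replicate number and each array in turn.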

Additional observations from a re-analysis of the deposited data

Results flagged for a closer look

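Among 124 sets of 4 arrays checked, 20 had 1 array far from the others, where chance gives about 1 in 20. In testis the high arrays were AGAP003714 (3.74), AGAP000327 (2.80), AGAP004944 (2.60), AGAP008904 (5.18) and AGAP001185 (4.21), each in replicate 1, with AGAP002399 (2.86), AGAP001639 (12.79) and Ag.2L.357.0_UTR_s_at (3.56) in other replicates. Low ones were AGAP009940 (12.95) and Ag.2R.2137.0_CDS_at (14.11). In male carcass replicate 1 was high for AGAP001620 (4.90), AGAP002365 (3.22), Ag.3R.722.0_CDS_at (3.61) and Ag.2R.2137.0_CDS_at (6.69). Other replicates stood apart for AGAP009459 (2.73), AGAP001229 (3.74), AGAP005263 (3.73), AGAP009330 (10.46) and AGAP001185 (8.59). Many of these are values near the array floor that differ by little: for AGAP009459 the whole range was 0.010. Testis replicate 4 had the most detected probe sets, 5779.

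The gonads, each set against the carcass of its own sex, differed in their effects by the interaction test. Over all 7093 tested probe sets, 33.9% had a larger effect in testis and 27.7% a larger effect in ovary. Of the probe sets higher in testis, 1784 (55.9%) had a larger effect in testis than in ovary and 303 (9.49%) a larger effect in ovary. The testis contrast that chose them is part of the interaction, so these shares describe them only. In 184 pairs the UTR minus CDS shift was lower in testis than in ovary.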

How the results depend on the processing

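No alternative turned a called probe set to the opposite call. Calls higher in carcass fell to 1028 with a log2 2 threshold, and calls higher in testis to 1978 after quantile normalization of all 60 arrays, an alternative chosen after seeing the data. Without a detection limit 4259 probe sets were higher in testis and 2146 in carcass. X-linked shares higher in testis were 3.57% (quantile normalization of the 8 arrays), 3.53% (of all 60), 4.28% (no limit) and 5.28% (log2 2). X-linked shares higher in carcass were 17.5% with no limit and 32.0% at log2 2. Autosomal shares were 29.9% higher in testis with no limit, and 13.2%, 15.0% and 37.8% higher in carcass with no limit, at log2 2 and with all 60 normalized. Of the testis set, 572 were higher in female whole body at log2 2. UTR minus CDS counts in 115 pairs detected in both groups were 65 lower and 2 higher, and 43 were higher after quantile normalization.

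Leaving out replicates gave 3146 to 3267 calls higher in testis and 1682 to 1778 in carcass. X-linked shares were 8.36% to 10.6% and 55.0% to 58.4%, autosomal shares 50.7% to 52.6% and 23.9% to 25.2%. Whole-body counts were 196 to 208 in males and 1075 to 1116 in females. Interaction counts were 1657 to 1899 and 226 to 331, and UTR minus CDS counts 183 to 194 lower and 22 to 30 higher.

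Replicate numbers showed no consistent pairing: deviations of same-numbered arrays correlated at -0.009, 0.221, -0.023 and 0.068. Those of differently numbered arrays correlated at -0.167 to 0.105, so the 0.221 of replicate 2 was the highest of all. Whether the numbers pair the samples cannot be told from these values. With the replicate block 3195 probe sets were higher in testis and 1703 in carcass.

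Near the threshold, Ag.2R.716.0_CDS_s_at (-0.16), Ag.2L.194.0_CDS_a_at (-0.14) and AGAP000954 (-0.10) changed sign under quantile normalization of the 8 arrays, and Ag.2L.194.0_CDS_a_at (-0.076) with both carcasses as control. The cause was not tested. Of the named genes and probe sets, 8 lost a call and 4 gained one under at least 1 alternative. Where all 4 arrays of a group lay under the limit, signal near the floor limits the fold change to a bound.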
